A study of Arabidopsis thaliana with 20 samples.

Results

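The genes described here are 41 Arabidopsis thaliana loci of the autophagy machinery, out of 37336 loci in each count file. They were chosen by locus identifier: the 9 ATG8 genes (ATG8a to ATG8i), 7 genes of the ATG1 kinase complex that starts the process, 9 genes of the ATG8 and ATG12 conjugation systems, 8 ATG18 genes, ATG9 and ATG2, 4 genes of the VPS34 lipid kinase complex, and NBR1 and ATI1, which bind ATG8 and bring cargo. Of the 41, 40 had enough reads to be tested, and ATG18e had no read in any library. RefSeq describes the ATG1 loci only as protein kinases and the ATG16 locus only as a WD40 repeat protein, so the ATG names of those loci are the ones in general use.

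Autophagy encloses part of the cytoplasm in a double-membraned vesicle, the autophagosome, and delivers it to the vacuole for breakdown. ATG8, a small ubiquitin-like protein, is joined to a membrane lipid on the growing vesicle, where it serves as the anchor for cargo receptors. In ageing leaves autophagy carries pieces of chloroplasts, including Rubisco, to the vacuole, and so takes part in moving nitrogen to younger organs and seeds.

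The leaves were rosette leaves, taken from wild-type plants of the ecotype Col-0 and from snrk2.4/snrk2.10 plants, which carry mutations in SnRK2.4 and SnRK2.10, a pair of SNF1-related protein kinases known from osmotic and salt stress signalling. All plants grew in long days and were sampled 25 and 45 days after sowing (DAS), with 5 libraries for each genotype and age, 20 in all. The study asked whether these kinases control developmental leaf senescence through abscisic acid production and signalling. The labels do not say whether the 5 libraries of a group come from separate plants, and if they do not, the p-values measure only the spread between these samples. The labels describe the double mutant as a genotype only and name no second, independent mutant line.

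Each library is a 3′ RNA-seq library, in which reads come from the end of the transcript, and held 615317 to 2343212 counted reads. Levels are given in CPM, read counts scaled to a library total of 1000000 after TMM scaling, which evens out differences in library composition. SNRK2.4 fell in the mutant at both ages, with a log2 fold change of -2.94 (adjusted p = 2.96e-07) at 25 DAS and -5.12 (adjusted p = 3.1e-12) at 45 DAS. SNRK2.10 fell by 1.26 at 45 DAS (adjusted p = 5.54e-06) and had a log2 fold change of -0.40 at 25 DAS (adjusted p = 0.106). The 4 leaf mesophyll genes looked at (RBCS1A, CAB3, RCA and GAPA) summed to 54920 to 63280 CPM in the 10 libraries at 25 DAS, while the sums of the root, seed and flower markers stayed at or below 11.1 CPM in every library. Within groups, the biological coefficient of variation at 25 DAS was 10.7% (wild type) and 13.2% (mutant), and at 45 DAS it was 30.1% (wild type) and 19.2% (mutant). The wild-type libraries at 45 DAS thus differed from each other more than those of any other group, which bears on every value given for that group.

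The promoters of 4 ATG8 genes are printed because these genes mark the range of behaviour in the family: ATG8a and ATG8i rose with age in both genotypes, and ATG8e and ATG8h did not. Each is the 300 bases before the gene start that RefSeq annotates on TAIR10.1, written 5′ to 3′ toward the gene. Capitals mark the W-box core TTGAC, which WRKY transcription factors bind, and the core TGACG, which TGA-type bZIP factors bind, on either strand. The motifs share the letters TGAC, so TTGACG holds both and appears as 1 run of capitals.
ATG8a, chr4:11655262-11655561 (+ strand): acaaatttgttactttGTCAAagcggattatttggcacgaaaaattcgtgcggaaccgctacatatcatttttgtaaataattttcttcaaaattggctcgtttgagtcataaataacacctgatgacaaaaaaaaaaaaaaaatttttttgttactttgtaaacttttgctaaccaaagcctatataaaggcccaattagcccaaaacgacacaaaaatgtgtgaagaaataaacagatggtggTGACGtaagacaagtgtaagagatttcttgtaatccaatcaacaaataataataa
ATG8i, chr3:5275096-5275395 (- strand): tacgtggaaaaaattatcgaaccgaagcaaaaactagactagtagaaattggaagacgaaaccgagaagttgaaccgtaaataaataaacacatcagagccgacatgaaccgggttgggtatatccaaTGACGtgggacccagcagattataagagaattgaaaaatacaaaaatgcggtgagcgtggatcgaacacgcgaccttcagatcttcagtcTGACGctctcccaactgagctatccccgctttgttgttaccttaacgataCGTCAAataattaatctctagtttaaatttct
ATG8e, chr2:18623964-18624263 (+ strand): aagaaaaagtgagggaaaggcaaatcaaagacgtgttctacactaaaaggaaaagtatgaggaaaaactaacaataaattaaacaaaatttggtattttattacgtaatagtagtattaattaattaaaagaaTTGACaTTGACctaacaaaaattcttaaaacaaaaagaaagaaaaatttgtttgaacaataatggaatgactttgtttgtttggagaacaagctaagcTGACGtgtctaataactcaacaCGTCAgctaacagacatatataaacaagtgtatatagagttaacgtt
ATG8h, chr3:1956398-1956697 (- strand): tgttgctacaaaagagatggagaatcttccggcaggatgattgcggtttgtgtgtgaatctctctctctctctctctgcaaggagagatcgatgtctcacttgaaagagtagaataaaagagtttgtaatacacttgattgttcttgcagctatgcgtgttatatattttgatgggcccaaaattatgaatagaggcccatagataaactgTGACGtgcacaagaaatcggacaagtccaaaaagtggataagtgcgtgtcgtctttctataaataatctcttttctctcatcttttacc

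TGACG stood in 6 of the 9 ATG8 windows (66.7%) and in 14 of the 41 member windows (34.1%), against 21.3% of the windows of 27443 protein-coding genes. All 4 promoters shown hold it, those of ATG8a and ATG8i and those of ATG8e and ATG8h. Of the other ATG8 genes, which all rose in both genotypes, ATG8f and ATG8g hold it and ATG8b, ATG8c and ATG8d do not. TTGAC stood in 3 of 9 ATG8 windows (33.3%) and 18 of 41 member windows (43.9%), against 50.4% of all. The G-box CACGTG, which bZIP and bHLH factors bind, stood in 0 of 9 ATG8 windows and 4 of 41 member windows (9.76%), against 7.09% of all. A match describes these letters in this window and says nothing of which factor binds.

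Most autophagy genes had more transcript in 45-day-old leaves than in 25-day-old leaves, in both genotypes, and the ATG8 family had the highest median change of the 4 large groups. In the wild type 32 of 40 tested members changed (edgeR quasi-likelihood test, Benjamini-Hochberg adjusted p under 0.05 over all 14503 tested genes), 31 of them higher and 1 lower. In the mutant 30 changed, 27 higher and 3 lower. Ageing moved much of the transcriptome: 70.6% of all tested genes changed in the wild type (36.1% higher, 34.5% lower) and 70% in the mutant (35.4% higher, 34.6% lower). The share of members that changed, 80% and 75%, was near that background, while the split was 31 higher to 1 lower and 27 higher to 3 lower among members and nearly even over all genes. Rises of at least 2-fold were called for 22 of 40 members in the wild type and 19 of 40 in the mutant, against 23.7% and 22.7% of all tested genes.

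The median log2 change with age in the wild type was 2.09 for the ATG8 genes, 1.18 for the ATG18 genes, 0.86 for the initiation genes and 0.52 for the conjugation genes, beside 0.07 for all tested genes. In the mutant the medians were 1.97, 0.98, 0.82 and 0.55, beside 0.06 for all tested genes. Of the 9 ATG8 genes 8 rose in the wild type, 7 of them at least 2-fold, and in the mutant 7 rose and 1 fell. The order of the medians is a description of these lists and was not tested. In bulk leaf RNA, a changed share of cells of some type and a changed amount of RNA per cell cannot be told apart.

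**Figure D1:**
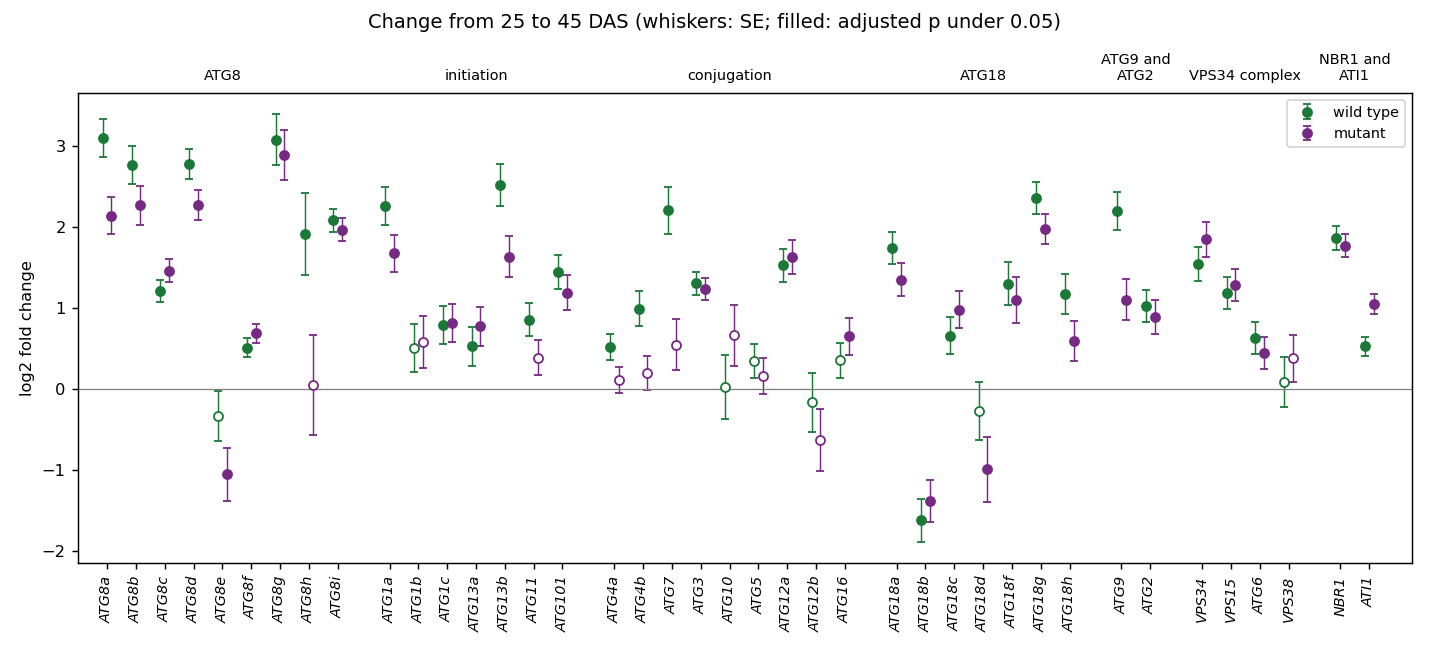
Log2 fold change from 25 to 45 DAS (vertical axis) of the 40 tested autophagy genes, grouped by role, in wild type (green) and mutant (purple), with standard errors as whiskers and filled points where the adjusted p is under 0.05. Of the ATG8 genes 7 are filled above 0 in both genotypes, while ATG8e lies below 0, and ATG18b is filled below 0 in both.

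ATG8a (AT4G21980) and ATG8g had the largest rises of the ATG8 genes in the wild type, closer to each other than their standard errors. The level of ATG8a was 22.9, 35.3, 38.1, 29.9 and 13.6 CPM in the 5 wild-type libraries at 25 DAS and 238, 254, 190.2, 151 and 394 CPM at 45 DAS. In the mutant it was 34.8, 32.5, 29.9, 25.8 and 29.1 CPM at 25 DAS and 140.3, 117, 160.3, 130.03 and 123 CPM at 45 DAS. No library at 45 DAS overlapped one at 25 DAS in either genotype, as was the case for 54.8% of all tested genes in the wild type and 57.1% in the mutant. The change was 8.59-fold in the wild type (log2 fold change 3.10, SE 0.23, adjusted p = 3.54e-11) and 4.42-fold in the mutant (log2 fold change 2.14, SE 0.23, adjusted p = 1.77e-08). ATG8a shares an exact run of 53 bases with ATG8b near the transcript end, so reads of these genes may have been split between them.

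ATG8b, ATG8d and ATG8g stood at 17.6 CPM or less in every library at 25 DAS and above that in every library at 45 DAS. ATG8b (AT4G04620) was at 17.6, 12.1, 11.3, 12.5 and 6.17 CPM in wild type at 25 DAS and at 57.9, 89.9, 62.6, 73.2 and 138 CPM at 45 DAS, a rise of 6.81-fold (log2 fold change 2.77, SE 0.23, adjusted p = 7.07e-11). In the mutant ATG8b went from 14.1, 9.55, 11.8, 14.9 and 8.21 CPM to 64.1, 51.7, 60.6, 51.7 and 56.8 CPM (log2 fold change 2.27, SE 0.24, adjusted p = 5.24e-09). Its groups at the different ages did not overlap in either genotype. ATG8d (AT2G05630) was at 11.8, 7.16, 13.8, 13.2 and 9.88 CPM and then at 79.1, 76.5, 60.2, 72.4 and 92.1 CPM in the wild type (log2 fold change 2.78, SE 0.18, adjusted p = 7.27e-13). In the mutant it was at 7.46, 8.59, 15.4, 10.9 and 13.3 CPM and then at 52.1, 46.1, 53.2, 64.1 and 58.2 CPM (log2 fold change 2.27, SE 0.19, adjusted p = 5.09e-11). Again every library at 45 DAS was above every library at 25 DAS. ATG8g (AT3G60640) was close to the counting floor at 25 DAS, at 1.31, 7.16, 5.67, 2.09 and 0 CPM in the wild type, where the library at 0 had no read and 3 reads would be 3.70 CPM. It reached 33.4, 33.1, 28.9, 23.8 and 36.1 CPM at 45 DAS (log2 fold change 3.08, SE 0.32, adjusted p = 2.91e-09). The mutant went from 5.80, 1.91, 3.63, 4.07 and 4.42 CPM to 36.7, 31.2, 31.6, 27.9 and 23.8 CPM (log2 fold change 2.90, SE 0.31, adjusted p = 6.18e-09), with both genotypes in the same range at each age.

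ATG8i (AT3G15580), ATG8c (AT1G62040) and ATG8f (AT4G16520) were detected at 42.0 CPM or more in every young library and rose further. ATG8i was at 73.1, 79.3, 80.2, 79.3 and 70.4 CPM in wild type at 25 DAS and at 324, 327, 284, 251 and 443 CPM at 45 DAS (log2 fold change 2.09, SE 0.14, adjusted p = 9.21e-13). In the mutant it was at 51.4, 52.5, 72.5, 68.6 and 68.9 CPM and 269, 237, 270.0, 239 and 218 CPM (log2 fold change 1.97, SE 0.14, adjusted p = 3.72e-12). ATG8i belongs to the ATG8 proteins that end at the glycine to which the lipid is joined, and it rose 4.25-fold in the wild type and 3.92-fold in the mutant. ATG8c was at 58.8, 72.2, 60.8, 74.4 and 71.6 CPM and 163, 155, 148, 124 and 193 CPM in the wild type (log2 fold change 1.22, SE 0.14, adjusted p = 2.21e-08). In the mutant it was at 43.9, 42.0, 49.9, 49.5 and 61.9 CPM and 164, 129, 147, 139.5 and 103 CPM (log2 fold change 1.46, SE 0.14, adjusted p = 1.2e-09). Its ages did not overlap in either genotype. ATG8f was at 178, 223, 162, 195 and 223 CPM and 289, 296, 254, 246 and 313 CPM in the wild type (log2 fold change 0.51, SE 0.12, adjusted p = 0.000344). In the mutant it was at 155, 143, 163, 179 and 176 CPM and 282, 256, 282, 274 and 223 CPM (log2 fold change 0.69, SE 0.12, adjusted p = 9.68e-06). ATG8f had the smallest rise of the ATG8 genes that were called in both genotypes, at 1.43-fold and 1.61-fold.

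ATG8e and ATG8h did not follow the rest of the family. ATG8e (AT2G45170) was at 139.7, 177, 143, 159 and 122 CPM in the 5 wild-type libraries at 25 DAS and at 121, 129, 57.8, 39.7 and 239 CPM at 45 DAS. The old wild-type libraries lay on both sides of the young ones, and the change was not called (log2 fold change -0.33, SE 0.31, adjusted p = 0.355). Without replicate 5 of the wild type at 45 DAS it was called as lower, at -0.80 (adjusted p = 0.00858). In the mutant ATG8e was at 79.6, 94.5, 99.7, 90.3 and 111 CPM at 25 DAS and 52.1, 46.1, 52.3, 36.8 and 40.98 CPM at 45 DAS, and all old libraries were below all young ones (log2 fold change -1.05, SE 0.33, adjusted p = 0.00806). ATG8h (AT3G06420), the other ATG8 protein that ends at the glycine, was at 13.7, 16.0, 18.6, 11.1 and 14.8 CPM in the wild type at 25 DAS and 71.7, 56.0, 7.22, 13.2 and 124 CPM at 45 DAS. Its rise was called (log2 fold change 1.92, SE 0.50, adjusted p = 0.00236), but replicates 3 and 4 lay within or below the range of the young libraries. In the mutant ATG8h was at 16.6, 14.3, 9.06, 9.502 and 7.58 CPM and 12.6, 11.5, 9.97, 8.91 and 17.2 CPM, with overlapping ages (log2 fold change 0.06, SE 0.62, adjusted p = 0.942).

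**Figure D2:**
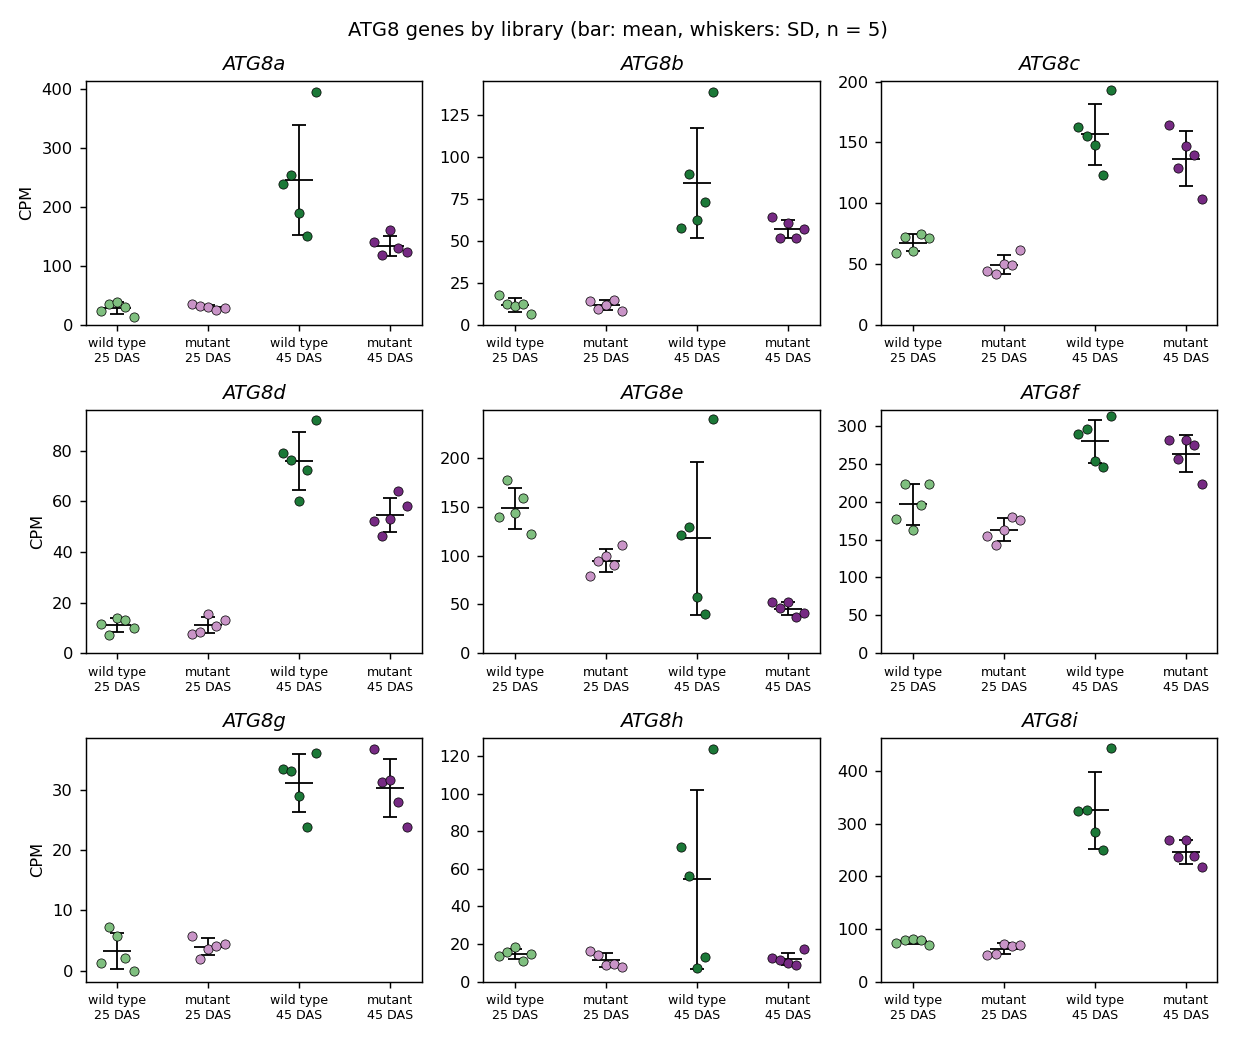
CPM (vertical axis, linear, a separate scale for each gene) of the 9 ATG8 genes in each of the 20 libraries, by genotype and age, with the mean and SD of 5 libraries. ATG8a, ATG8b, ATG8c, ATG8d, ATG8f, ATG8g and ATG8i stand higher at 45 DAS with no overlap, while wild-type values of ATG8e and ATG8h at 45 DAS split into high and low libraries.

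Summed over the 9 genes, ATG8 reads at 25 DAS made up 558 ± 46.1 CPM in wild-type leaves and 439 ± 33.9 CPM in mutant leaves (mean ± SD, n = 5). At 45 DAS the sums were 1371 ± 382 CPM and 981 ± 89.99 CPM. The make-up of that sum also changed. ATG8e held 26.5% ± 2.05 of ATG8 reads in young wild-type leaves and 7.87% ± 3.25 in old ones, and in the mutant 21.6% ± 1.86 and 4.65% ± 0.493. ATG8a went from 4.98% ± 1.68 to 17.6% ± 1.71 in the wild type, and from 7.00% ± 1.26 to 13.7% ± 0.944 in the mutant. Its share at 45 DAS was 15.2% to 20.0% over the wild-type libraries and 12.7% to 15.0% over the mutant libraries, which did not overlap. The shares of ATG8f (15.9% to 24.8% in the wild type, 25.8% to 28.2% in the mutant) did not overlap there either. Nor did those of ATG8g (1.83% to 2.64% and 2.75% to 3.42%), and both shares were higher in the mutant. Shares of a library have a fixed total, so a higher share of a gene does not mean a higher level. The mean level at 45 DAS was 280 CPM (wild type) and 263 CPM (mutant) for ATG8f, and 31.1 and 30.2 CPM for ATG8g. Genes outside the family have no such share, so these separations have no background beside them. Shares of the other ATG8 genes at 45 DAS overlapped between genotypes. These shares compare each gene with itself between groups, since read numbers of different genes depend on their own transcript ends.

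**Figure D3:**
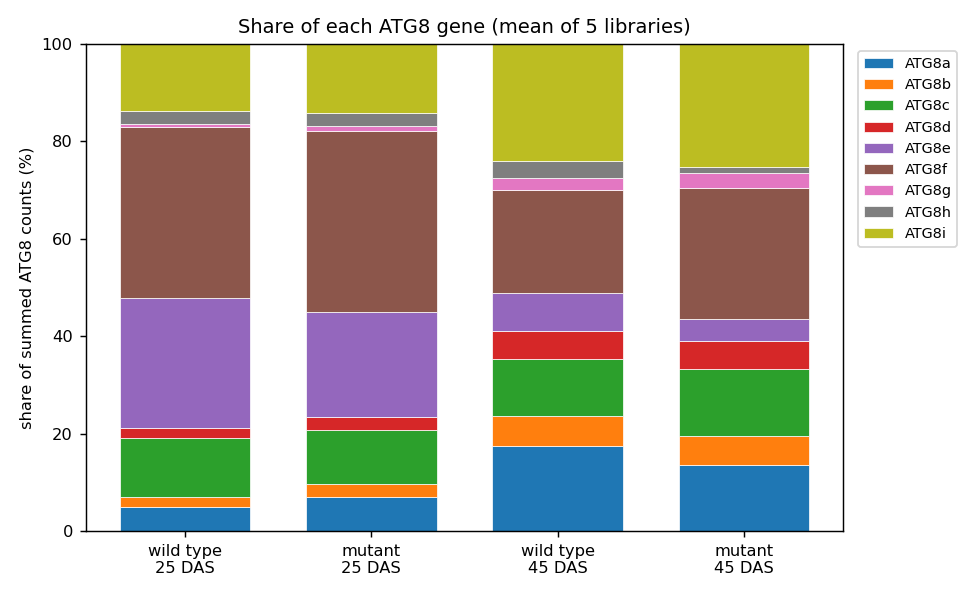
Share of the summed ATG8 counts (percent, vertical axis) held by each ATG8 gene, as the mean of 5 libraries per group. The purple ATG8e block shrinks from 26.5% and 21.6% at 25 DAS to 7.87% and 4.65% at 45 DAS, and the ATG8a block at the base grows.

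Among the initiation genes, which encode the ATG1 kinase and its partners, 6 of 7 rose in the wild type and 5 of 7 in the mutant. Of all tested genes 36.1% and 35.4% were called higher. ATG13b (AT3G18770), a regulatory partner of ATG1, rose 5.73-fold in the wild type, with a fitted log2 change of 2.52 (SE 0.26, adjusted p = 3.52e-09), and 3.12-fold in the mutant, with 1.64 (SE 0.25, adjusted p = 2.65e-06). ATG1a (AT3G61960), a kinase subunit, had log2 fold changes of 2.27 (SE 0.23, adjusted p = 3.49e-09) and 1.68 (SE 0.23, adjusted p = 5.42e-07). The levels of these genes at 25 and 45 DAS did not overlap in either genotype: ATG13b was at 2.09 to 6.53 and 17.1 to 33.1 CPM, and ATG1a at 10.5 to 19.8 and 45.6 to 108 CPM, in the wild type. ATG101 (AT5G66930), which stabilises the ATG13 subunit in human cells, rose with 1.45 (SE 0.21, adjusted p = 1.09e-06) and 1.20 (SE 0.22, adjusted p = 2.89e-05). ATG1c (AT2G37840) rose by less than 2-fold, with 0.79 (SE 0.23, adjusted p = 0.00397) and 0.82 (SE 0.23, adjusted p = 0.00325), the latter 0.51 (adjusted p = 0.265) on thinned counts. ATG1b, with 181 reads in all libraries together, had values of 0.51 and 0.59 that were not called. Paralogues were not tested against each other. ATG13a (AT3G49590) was just past the threshold in the wild type, with 0.53 (SE 0.24, adjusted p = 0.0491), a call lost under 22 alternatives, 14 of which leave out 1 library: wild-type replicates 3, 4 and 5 at 25 DAS and 1, 2 and 5 at 45 DAS, mutant replicates 1, 3 and 5 at 25 DAS, and each mutant library at 45 DAS. Without wild-type replicate 5 at 45 DAS it was 0.22 (adjusted p = 0.387). In the mutant ATG13a rose with 0.78 (SE 0.24, adjusted p = 0.00665). ATG11 (AT4G30790), the scaffold of the complex, rose in the wild type, with 0.86 (SE 0.20, adjusted p = 0.000549), and in the mutant had 0.39 (SE 0.22, adjusted p = 0.111); the difference between these changes was not called (adjusted p = 0.443).

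The conjugation genes gave a divided picture, with 5 of 9 higher in the wild type (55.6%) and 3 of 9 in the mutant (33.3%). Of all tested genes 36.1% and 35.4% were called higher, so the mutant share was near that background. None of the 9 was called lower, and the share called in either direction was below the 70.6% and 70% of all tested genes. ATG12a (AT1G54210), a ubiquitin-like protein joined to ATG5, rose 2.89-fold and 3.10-fold, with log2 fold changes of 1.53 (SE 0.20, adjusted p = 2.48e-07) and 1.63 (SE 0.21, adjusted p = 1.63e-07). Its paralogue ATG12b had -0.16 and -0.63, neither called. ATG3 (AT5G61500), the enzyme that hands ATG8 to the lipid, rose with 1.31 (SE 0.14, adjusted p = 4.74e-09) and 1.24 (SE 0.14, adjusted p = 1.72e-08). ATG7 (AT5G45900), the activating enzyme shared by ATG8 and ATG12, rose 4.62-fold in the wild type, with 2.21 (SE 0.29, adjusted p = 2.19e-07), and had 0.55 (SE 0.31, adjusted p = 0.12) in the mutant. The proteases that trim ATG8, ATG4a (AT2G44140) and ATG4b (AT3G59950), rose in the wild type with 0.52 (SE 0.16, adjusted p = 0.00584) and 1.00 (SE 0.22, adjusted p = 0.00023), and had 0.12 and 0.20 in the mutant, not called. The difference between genotypes in these age changes was not called for either protease (adjusted p = 0.381 and 0.157). ATG5 and ATG10, the ATG12 acceptor and the enzyme that joins the partners, were called in neither genotype, with log2 fold changes of 0.35 and 0.17 for ATG5 and 0.03 and 0.67 for ATG10. ATG16 (AT5G50230), the third partner of that complex, rose in the mutant, with 0.65 (SE 0.23, adjusted p = 0.0135), and had 0.36 (SE 0.22, adjusted p = 0.146) in the wild type.

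The ATG18 family, whose proteins bind the lipid PI3P on the growing membrane, moved in both directions. ATG18g (AT1G03380) rose from 5.88 to 13.2 to 37.9 to 68.8 CPM in the wild type and from 10.2 to 19.1 to 46.3 to 60.8 CPM in the mutant, with log2 fold changes of 2.36 (SE 0.20, adjusted p = 7.44e-11) and 1.98 (SE 0.19, adjusted p = 8.87e-10). ATG18a (AT3G62770), the family member best known for its need in Arabidopsis autophagy, rose with 1.75 (SE 0.20, adjusted p = 1.75e-08) and 1.35 (SE 0.20, adjusted p = 1.98e-06). ATG18f (AT5G54730) rose with 1.30 (SE 0.27, adjusted p = 0.000115) and 1.10 (SE 0.28, adjusted p = 0.00136). ATG18h (AT1G54710) rose with 1.18 (SE 0.24, adjusted p = 0.000119) and 0.59 (SE 0.25, adjusted p = 0.0361), the latter call being lost when any of 7 mutant libraries (replicates 1, 2, 4 and 5 at 25 DAS, or 2, 3 and 5 at 45 DAS) was left out, at adjusted p up to 0.0846, and in DESeq2 (adjusted p = 0.0591). ATG18c (AT2G40810) rose with 0.66 (SE 0.23, adjusted p = 0.0121), or 0.46 (adjusted p = 0.0938) without wild-type replicate 2 at 45 DAS and 0.33 (adjusted p = 0.421) on thinned counts, and in the mutant with 0.98 (SE 0.23, adjusted p = 0.000525). ATG18b (AT4G30510) went the other way in both genotypes. It was at 22.9, 29.2, 30.0, 24.3 and 21.0 CPM in young and 8.15, 10.3, 2.41, 7.06 and 11.8 CPM in old wild-type leaves, with -1.62 (SE 0.26, adjusted p = 5.7e-06). In the mutant it was at 14.9, 12.4, 20.8, 28.5 and 26.5 CPM and 9.32, 6.84, 9.14, 5.94 and 10.6 CPM, with -1.38 (SE 0.26, adjusted p = 4.32e-05), and in both genotypes the ages did not overlap. ATG18d (AT3G56440) fell in the mutant, with -0.99 (SE 0.40, adjusted p = 0.0296), and had -0.27 (SE 0.36, adjusted p = 0.515) in the wild type. This call was lost without mutant replicate 3 or 5 at 25 DAS or replicate 2 or 5 at 45 DAS, with adjusted p from 0.0555 to 0.116.

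ATG9 and ATG2 supply membrane lipid to the growing vesicle, ATG9 as a transmembrane lipid scramblase and ATG2 as a lipid transfer protein, roles worked out in yeast and human cells. ATG9 (AT2G31260) rose 4.59-fold in the wild type, with 2.20 (SE 0.23, adjusted p = 4.97e-09), and 2.16-fold in the mutant, with 1.11 (SE 0.25, adjusted p = 0.000357). ATG2 (AT3G19190) rose with 1.03 (SE 0.20, adjusted p = 6.1e-05) and 0.89 (SE 0.21, adjusted p = 0.000595), the latter 0.63 (adjusted p = 0.0675) on thinned counts.

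In the VPS34 complex, which makes PI3P, the lipid kinase VPS34 (AT1G60490) rose from 10.4 to 20.9 to 31.0 to 53.8 CPM in the wild type and from 8.82 to 16.6 to 29.1 to 47.4 CPM in the mutant. Its log2 fold changes were 1.55 (SE 0.21, adjusted p = 3.15e-07) and 1.85 (SE 0.22, adjusted p = 3.46e-08). VPS15 (AT4G29380), its regulatory kinase, rose with 1.19 (SE 0.19, adjusted p = 6.05e-06) and 1.29 (SE 0.20, adjusted p = 2.94e-06). ATG6 (AT3G61710), the plant Beclin, rose with 0.64 (SE 0.20, adjusted p = 0.00636) and 0.45 (SE 0.20, adjusted p = 0.0466); on thinned counts the wild-type value was 0.33 (adjusted p = 0.3) and the mutant call was lost as well (0.57, adjusted p = 0.111). Leaving out any wild-type library at 25 DAS, mutant replicate 1, 2, 3 or 4 at 25 DAS, or mutant replicate 2, 3 or 5 at 45 DAS ended the mutant call, with adjusted p up to 0.217, reached without mutant replicate 2 at 45 DAS. VPS38 (AT2G32760), found in the form of the complex that works in endosomal sorting, had 0.09 and 0.38, called in neither.

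The receptors rose in both genotypes. NBR1 (AT4G24690), which brings ubiquitinated aggregates to ATG8, was at 79.0 to 92.5 CPM in young and 231 to 418 CPM in old wild-type leaves, and at 45.8 to 81.6 and 233 to 255 CPM in the mutant. Its rise was 3.66-fold, with 1.87 (SE 0.15, adjusted p = 1.65e-11), and 3.42-fold, with 1.77 (SE 0.15, adjusted p = 5.9e-11). ATI1 (AT2G45980), a plant-specific ATG8-binding protein of the endoplasmic reticulum and plastid bodies, rose 1.44-fold in the wild type, with 0.53 (SE 0.12, adjusted p = 0.000344), and 2.07-fold in the mutant, with 1.05 (SE 0.12, adjusted p = 3.17e-08).

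Comparing the genotypes in young leaves, ATI1 was the only one of the 40 tested members that passed in the fit of all 20 libraries, beside 3.16% of all tested genes. That fit gave each gene 1 spread over all groups, although libraries of a group varied less at 25 than at 45 DAS. Numbers of calls at these ages therefore cannot be compared directly. ATI1 was at 60.1, 75.5, 64.8, 63.3 and 67.9 CPM in young wild-type leaves and 38.1, 42.0, 41.7, 46.8 and 48.7 CPM in young mutant leaves. The mutant libraries all lay below the wild-type libraries, as was the case for 3.36% of all tested genes in that direction. The means were 66.3 ± 5.85 and 43.5 ± 4.24 CPM (SD, n = 5), a fitted log2 change of -0.60 (SE 0.12, adjusted p = 0.00658). On counts thinned to the smallest library it was -0.59 (adjusted p = 0.093). ATG8e was the other member without overlap at 25 DAS, at 122 to 177 CPM in the wild type and 79.6 to 111 CPM in the mutant. Its fitted value was the lowest of the members and was not called, at -0.65 (SE 0.31, adjusted p = 0.312). At 45 DAS ATI1 was at 93.7, 78.9, 89.1, 97.1 and 119 CPM in the wild type and 93.2, 82.0, 83.1, 103 and 91.2 CPM in the mutant, overlapping ranges with a fitted log2 change of -0.08 (SE 0.12, adjusted p = 0.758). The next smallest p-values at 25 DAS belonged to ATG8c, with -0.44 (SE 0.15, adjusted p = 0.102), ATG8f, with -0.26 (SE 0.12, adjusted p = 0.25), ATG4b, with 0.50 (SE 0.22, adjusted p = 0.253), and ATG16, with -0.52 (SE 0.23, adjusted p = 0.263). ATG8c was called without mutant replicate 5 at 25 DAS, at -0.54 (adjusted p = 0.0467). It was called too with limma voom, with a variance per group (-0.44, adjusted p = 0.0478), and in a fit of the 25 DAS libraries alone (-0.47, adjusted p = 0.0188). The latter fit also called ATG8f (-0.30, adjusted p = 0.0444). Over all genes it called 1121 of 12250, against 459 of 14503 in the fit of all libraries. Of the 40 tested members 29 had a value below 0 at 25 DAS, with a median of -0.26, beside a median of 0.03 over all tested genes.

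In old leaves, 8 of the 40 tested members differed between genotypes, and all 8 were lower in the mutant. Over all tested genes 9.93% passed, 5.05% higher and 4.88% lower. The 8 were ATG8a, ATG8d, ATG8e and ATG8h, the scaffold ATG11, the activating enzyme ATG7, the PI3P-binding ATG18a and the scramblase ATG9. Thus 4 of 9 ATG8 genes passed (44.4%) and 4 of the 31 other tested members (12.9%), with none in the VPS34 complex and neither receptor. The median log2 fold change was -0.49 for the ATG8 genes, -0.43 for the initiation genes, -0.29 for the conjugation genes and -0.57 for the ATG18 genes, beside 0.0005 over all tested genes. Below 0 stood 36 of the 40 tested members, against 7237 of all 14503 tested genes. Without wild-type replicate 5 the member median moved from -0.37 to -0.20, the ATG8 median to -0.30 and the number below 0 to 31, and 5 members were called; ATG8a, ATG8e, ATG8h, ATG7 and ATG9 passed and ATG8d, ATG11 and ATG18a did not. Leaving out mutant replicate 2 also left 5 calls, and a fit of the 45 DAS libraries alone left 3, those of ATG7, ATG8a and ATG9. Over all genes that fit called 393 of 11520, against 1440 of 14503 in the fit of all libraries.

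**Figure D4:**
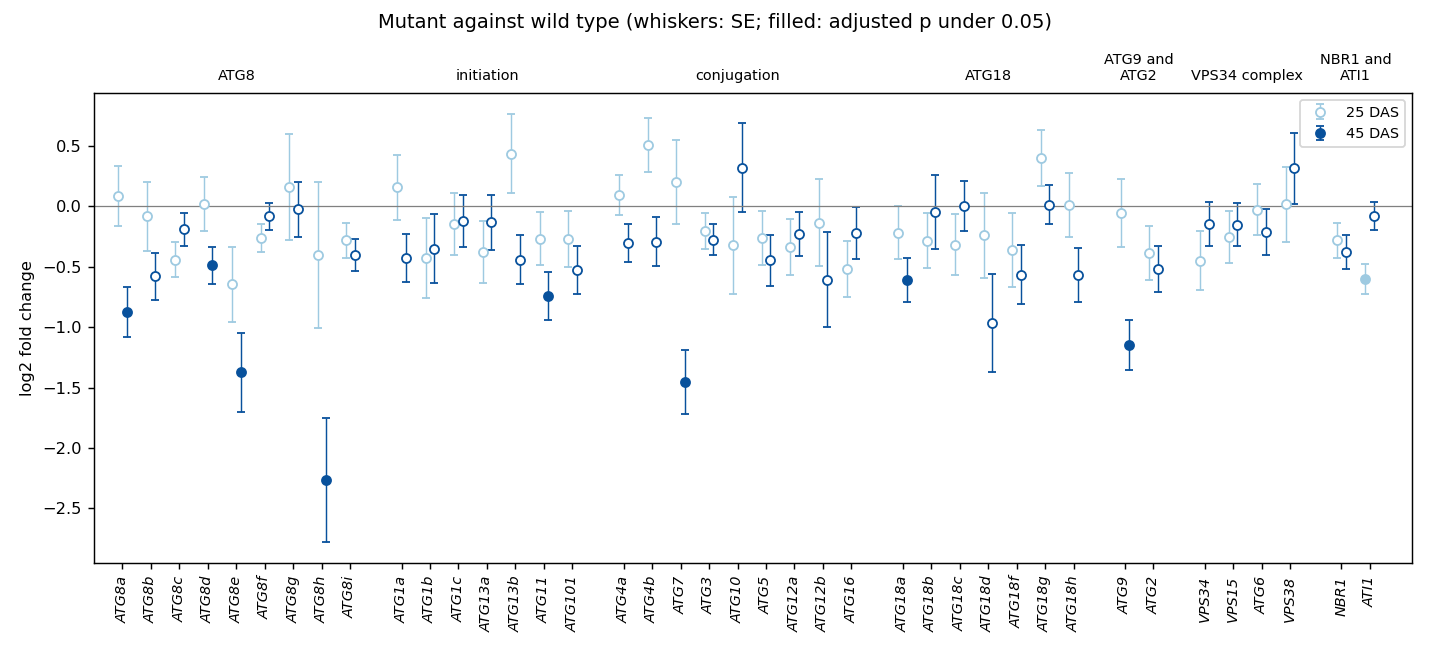
Log2 fold change of the mutant against the wild type (vertical axis) of the 40 tested autophagy genes, grouped by role, at 25 DAS (light blue) and 45 DAS (dark blue), with standard errors as whiskers and filled points where the adjusted p is under 0.05. At 45 DAS 8 filled points lie below 0, and at 25 DAS only ATI1 is filled.

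ATG9, ATG7 and ATG8a passed at 45 DAS under each of the 29 alternatives run. ATG9 was at 39.9, 51.3, 32.5, 32.7 and 70.0 CPM in the wild type and 24.7, 16.2, 19.9, 26.1 and 14.5 CPM in the mutant. Its groups did not overlap, as held for 3.04% of all tested genes in that direction, and it was lower by a fitted log2 change of -1.15 (SE 0.21, adjusted p = 0.00103). The locus shares 184 bases with AT2G31265 on the other strand, which had no read in any library. ATG7 was at 37.5, 41.8, 39.7, 14.1 and 66.3 CPM in the wild type and 19.2, 9.40, 19.1, 13.1 and 13.2 CPM in the mutant, with -1.46 (SE 0.26, adjusted p = 0.00115). Wild-type replicate 4 lay within the mutant range and the other 4 wild-type libraries above it. ATG8a, whose library values are given above, had -0.87 (SE 0.20, adjusted p = 0.00792), with wild-type replicate 4 at 151 CPM within the mutant range of 117 to 160.3 CPM. It shares 27 bases with AT4G21990 on the other strand, and the counting rule for such reads is not given in the sources used here. The same limit holds for each of the 14 members, of 41, that overlap another locus. Opposite-strand overlaps span 1445 bases for ATG4a, 829 for VPS15 and 597 for ATG5. The neighbour of VPS15 had 3233 reads against its 654, and that of ATG4b, sharing 160 bases, 2176 against 614.

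ATG11 was at 34.2, 45.0, 44.5, 35.3 and 63.3 CPM in old wild-type leaves and 31.8, 26.9, 27.4, 17.2 and 31.7 CPM in old mutant leaves, without overlap, with a fitted log2 change of -0.74 (SE 0.20, adjusted p = 0.0179). Its call was lost without wild-type replicate 5 (-0.54, adjusted p = 0.107), mutant replicate 2 (-0.72, adjusted p = 0.0504) or mutant replicate 4 (-0.57, adjusted p = 0.0742). ATG11 overlaps AT4G30780 on the other strand by 690 bases. ATG18a was at 77.4, 103, 75.8, 46.8 and 119 CPM in the wild type and 66.9, 50.4, 65.6, 44.5 and 50.2 CPM in the mutant, with overlapping ranges and -0.61 (SE 0.18, adjusted p = 0.0321). Its call ended on leaving out any of wild-type replicates 2 and 5 and mutant replicates 2, 4 and 5, with values from -0.55 to -0.43 and adjusted p from 0.0842 to 0.17. It was lost too with upper-quartile scaling (adjusted p = 0.0502), on thinned counts (0.124) and with limma voom (0.0543). ATG8d had -0.49 (SE 0.15, adjusted p = 0.0389), and its call was lost when any of 8 libraries was left out: wild-type replicates 1, 2, 4 or 5, or mutant replicates 1, 2, 3 or 5, with values from -0.47 to -0.39 for all but wild-type replicate 4, where it was -0.49, and adjusted p from 0.0587 to 0.153. The ATG8d call was lost too with upper-quartile scaling (adjusted p = 0.0593), on thinned counts (0.0533) and with all genes of at least 1 count tested (0.0516). Just outside the threshold were ATG8i, with -0.40 (SE 0.13, adjusted p = 0.0521), and ATG8b, with -0.58 (SE 0.20, adjusted p = 0.0588).

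ATG8e and ATG8h had the largest genotype differences at 45 DAS together with ATG7, and their wild-type libraries were the most uneven. The log2 fold change was -2.26 (SE 0.51, adjusted p = 0.00891) for ATG8h and -1.37 (SE 0.33, adjusted p = 0.0115) for ATG8e. In the wild type at 45 DAS replicates 1, 2 and 5 were high and replicates 3 and 4 low for both genes, and for ATG8h and ATG8e the low libraries lay at or near the mutant range. ATG8h had a coefficient of variation of 87.4% there. SAG12, a cysteine protease whose transcript marks leaf senescence, stood at 3008, 2611, 863, 806 and 16424 CPM in the same libraries and at 41.7, 78.2, 268, 139 and 78.0 CPM in the mutant. The order of the wild-type libraries was thus alike for SAG12 and these ATG8 genes, with replicate 5 highest and replicates 3 and 4 lowest. Fitted to the 45 DAS libraries alone, ATG8h had -2.24 (adjusted p = 0.0954) and ATG8e -1.36 (adjusted p = 0.101), and limma voom gave ATG8h -1.76 (adjusted p = 0.0598).

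Wild-type replicate 5 at 45 DAS was the highest of its group for 30 of 40 tested members and for all 9 ATG8 genes, and for 27% of all tested genes. The 4 mesophyll genes summed to 1682 to 6358 CPM over the wild-type libraries and 5543 to 6804 CPM over the mutant libraries at 45 DAS, and none of the 4 was at 0. RCA and GAPA were higher in the mutant, with log2 fold changes of 0.91 (SE 0.21, adjusted p = 0.006) and 0.75 (SE 0.20, adjusted p = 0.0168). SAG12 was lower in the old mutant leaves, with -5.30 (SE 0.87, adjusted p = 0.00131). In young leaves it was at 0, 0, 0, 0.695 and 1.23 CPM in the wild type, which is at most 1 read a library, and at 16.6, 47.7, 12.7, 62.4 and 12 CPM in the mutant, higher in every mutant library but not called (adjusted p = 0.0578). Their part in the differences of the autophagy genes was not tested. Chromosome 1 carries both mutated kinase genes and 5 of the 41 members: ATG8c, ATG12a, ATG18g, ATG18h and VPS34. None of the 9 members called in either genotype comparison is among them. Such small numbers do not tell whether place on that chromosome matters, and this was not tested.

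**Figure D5:**
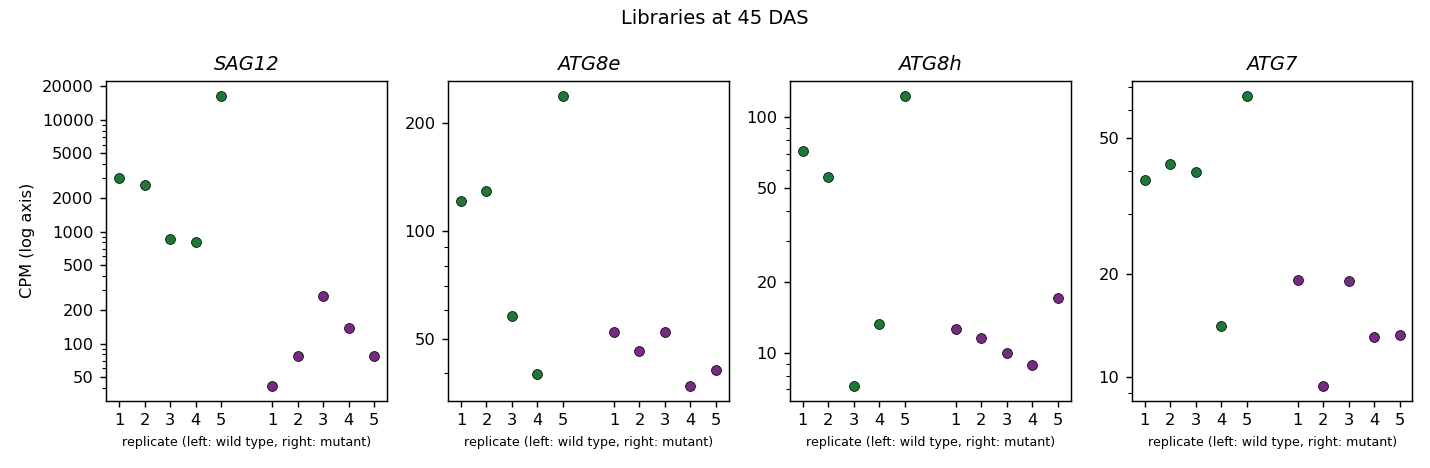
CPM (vertical axis, log scale, a separate scale for each gene) of SAG12, ATG8e, ATG8h and ATG7 in each library at 45 DAS, wild-type replicates in green on the left and mutant replicates in purple on the right. Wild-type replicate 5 is highest in every panel, with 124 CPM of ATG8h and 66.3 CPM of ATG7.

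The change with age differed between genotypes for 1 of the 40 tested members, ATG7, beside 3.21% of all tested genes. Its age change was smaller in the mutant by -1.66 (SE 0.44, adjusted p = 0.0374), with levels at 25 DAS of 7.83, 8.82, 10.5, 8.34 and 7.41 CPM in the wild type and 7.46, 8.59, 9.97, 11.5 and 11.4 CPM in the mutant. The young libraries overlapped. In old leaves wild-type replicate 4 lay within the mutant range and the other wild-type libraries above it, as given above. The call was lost on thinned counts (-1.32, adjusted p = 0.234) and when any of 15 libraries was left out, all but wild-type replicates 1 and 4 at 45 DAS, mutant replicate 1 at 25 DAS and mutant replicates 1 and 3 at 45 DAS, with adjusted p from 0.0506 to 0.0815. ATG7 lies at chr5:18615175-18618597 on the + strand, 211 bases after the end of SAG12 at chr5:18613239-18614963 on the same strand, by the RefSeq annotation of TAIR10.1. Both genes were highest in wild-type replicate 5 at 45 DAS, as was the case for 30 of the 40 tested members, and lowest in replicate 4. Replicates 3 and 4 were close in SAG12 (863 and 806 CPM) but not in ATG7 (39.7 and 14.1 CPM). Whether reads of SAG12 transcripts running past its end were counted for ATG7 was not tested. The next smallest p-values were those of ATG9, with -1.09 (SE 0.35, adjusted p = 0.0934), ATI1, with 0.52 (SE 0.17, adjusted p = 0.098), ATG8a, with -0.96 (SE 0.32, adjusted p = 0.109), and ATG4b, with -0.80 (SE 0.30, adjusted p = 0.157). ATI1 was called without wild-type replicate 1 at 45 DAS (0.59, adjusted p = 0.0372) or replicate 5 (0.66, adjusted p = 0.0248), and ATG8a without wild-type replicate 4 at 45 DAS (-1.04, adjusted p = 0.0416). ATG8h, though called as rising in the wild type and not in the mutant, had an interaction of -1.86 (SE 0.81, adjusted p = 0.238), so its age change is not shown to differ between genotypes.

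A further 20 genes around the pathway were looked at, among them the upstream kinases TOR and KIN10 with their partners and further receptors, and 19 were tested. In ageing 14 rose in the wild type, and in the mutant 14 rose and 1 fell, that of RAPTOR1A, with -1.72 (SE 0.37, adjusted p = 0.000244). The share called with age, 73.7% in the wild type and 79% in the mutant, was near the 70.6% and 70% of all tested genes. Higher calls made up 36.1% and 35.4% of all tested genes. ATI2 (AT4G00355), the close relative of ATI1, rose with 1.95 (SE 0.13, adjusted p = 1.06e-12) in the wild type and 2.36 (SE 0.14, adjusted p = 5.89e-14) in the mutant. KIN10 (AT3G01090), a catalytic subunit of the SnRK1 energy-sensing kinase, rose with 1.07 (SE 0.14, adjusted p = 1.3e-07) and 1.61 (SE 0.14, adjusted p = 1.27e-10), and DSK2b, a ubiquitin-binding receptor, with 1.50 (SE 0.13, adjusted p = 1.62e-10) and 1.26 (SE 0.13, adjusted p = 4.62e-09). None of the 19 was called between genotypes at either age or in the interaction by the quasi-likelihood test of edgeR. At an unadjusted p under 0.05, 4 of them passed at 25 DAS, 3 at 45 DAS and 5 in the interaction, beside 16.3%, 23.1% and 17.3% of all tested genes. DESeq2 called 0 in each of these comparisons, and limma voom called 1 at 25 DAS and 0 in the others. Their median log2 fold change at 45 DAS was 0.0001, and 9 of the 19 were below 0.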

How the data were processed

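The authors deposited raw read counts per locus for 20 libraries of 3′ RNA-seq, made per the labels' protocols with barcoded oligo(dT) primers and tagmentation of pooled cDNA. Alignment used STAR 2.7.8a and TAIR10, per the submitters' processing notes; the counting tool, annotation, use of strand and collapsing of molecular identifiers are not given in the sources used here. Library totals ran from 615317 to 2343212, and 3 reads, taken as the floor of detection for counting error only, equal 1.28 to 3.97 CPM.

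The autophagy genes and the other lists were chosen with earlier results of these data known. Genes passing filterByExpr (14503) were fitted in 1 edgeR 4.0.16 quasi-likelihood model of all 20 libraries (R 4.3.3, TMM scaling, robust dispersions), with Benjamini-Hochberg adjustment over all tested genes and a threshold of 0.05. Standard errors are the log2 fold change divided by the square root of F. Genotype was compared at each age, age in each genotype, and the difference of the age changes as an interaction; these comparisons share libraries. Statistics are named for every member past the threshold, all ATG8 genes with age, and the 5 smallest p-values where fewer than 5 members pass. Tested on simulated counts for the 45 DAS comparison (14503 genes, 200 changed), the fit recovered 9.84% of 1.5-fold, 58.5% of 2-fold and 96.7% of 4-fold changes. The simulation gave each gene 1 spread, estimated over all groups. The real coefficient of variation was 30.1% and 19.2% at 45 DAS, against 10.7% and 13.2% at 25 DAS (wild type and mutant). These rates may therefore be too high for the real comparison. No replicate files were identical, and the lowest chi-square per degree of freedom between replicates was 1.34. Alternatives were other scalings and filters, DESeq2 1.42.0, limma 3.58.1 voom, thinned counts, a replicate block, fits of the compared groups alone and leaving out each library. Promoters were read from TAIR10.1, whose chromosome lengths match TAIR10.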

Additional observations from a re-analysis of the deposited data

Results flagged for a closer look

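The change of ATG7 with age differed between the genotypes: the log2 difference was -1.66 (SE 0.44, adjusted p = 0.0374 in edgeR's quasi-likelihood test of the interaction). It was selected because the difference itself passed the test, for 1 of the 40 tested members beside 3.21% of all tested genes. The call was lost under 16 of 28 alternatives, most of which leave out 1 library. The rise was 4.62-fold in the wild type and 1.47-fold in the mutant. The part of the neighbouring SAG12 gene, whose levels in the same libraries are given above, was not tested.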

How the results depend on the processing

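Of the values given for single genes, 2257 kept direction and side of the threshold under an alternative, 100 lost the call, 9 gained it and 5 changed sign. The 5 concern ATG8h with age in the mutant, at 0.06: -0.11 on thinned counts and -0.08 to 0.23 on leaving out libraries. Members called between genotypes at 25 DAS went from 1 to 0 on thinned counts, 2 with limma voom and 4 in the fit of those groups alone, and to 1 to 2 on leaving out libraries. At 45 DAS they went from 8 to 3 in the fit of those groups alone to 6 with upper-quartile scaling, limma voom or thinned counts, and to 5 to 10 on leaving out libraries. In the interaction they went from 1 to 2 with upper-quartile scaling, 0 on thinned counts, and 0 to 2 on leaving out libraries. With age they stayed at 30 to 32 in the wild type and 27 to 31 in the mutant on leaving out libraries, and thinned counts, with 35 members tested, gave 29 and 26. Medians over members were added after seeing the data: that of the interaction ranged from -0.30 to 0.00 on leaving out libraries, and changed sign without wild-type replicate 5 at 45 DAS, to 0.00. Deviations of same-numbered libraries correlated from -0.23 to 0.36 over 30 pairs, 6 of them over 0.1, and 10 were the best match of their library, so the numbers were not taken to pair samples. The replicate block gave 1, 8, 31, 30 and 1 calls (25 DAS, 45 DAS, age in wild type, age in mutant, interaction), and among the genes given it ended only the call of ATG13a with age in the wild type (adjusted p = 0.0758). Where no cause is shown by fewer libraries or reads, the cause was not tested. In the simulated comparison at 45 DAS 9.84% of 1.5-fold changes were recovered, so a missed call there does not show equal levels.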
